A study of Mus musculus with 4 samples.

Results

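The expression of potassium channel genes was described in sorted stromal cells from mouse small intestine. The genes were all rows of the expression table whose symbol began with Kcn, together with Abcc8 and Abcc9, that had a value above 0 in at least 1 cell. The rule matched 73 rows, of which 63 of the 18619 rows of the table had at least 1 transcript and 10 had none. Of the 63 genes, 39 encode pore-forming subunits, 5 are not channel subunits (4 antisense or overlapping transcripts and Kcnrg, a regulator of channel assembly) and the others encode auxiliary, modifier or sulfonylurea receptor subunits.

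The series held 4 samples in 3 groups, namely 2 wild-type libraries and 1 LATS1/2 KO library each at 1 and 2 weeks. The values below are those of the LATS1/2 KO 1w library, and the other 3 were not analysed here. It came from adult C57BL/6J mice that carried a Pdgfrb-driven, tamoxifen-inducible Cre recombinase (CreERT2), a Tomato reporter and floxed alleles of both Lats1 and Lats2, and from which reporter-positive cells were sorted 1 week after induction. LATS1 and LATS2 are the kinases of the Hippo pathway that restrain the coactivators YAP and TAZ, which act on genes through TEAD transcription factors. Only cells in which the Pdgfrb promoter had driven Cre could be sorted, the outer muscle layer was removed beforehand, and the study names a pair of mice for the LATS1/2 KO data it integrated without saying how these divide over the libraries. With 1 library there was no replicate and no test, and no level could be set against wild-type cells.

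In 4108 cells 46054627 transcripts were counted by unique molecular identifiers (UMIs), and the median cell held 10726 of them (range 1965 to 35727). A level, in CPM, is the number of a gene's UMIs among 1000000 UMIs of the cells pooled, given with its exact Poisson 95% interval. Ratios carry exact conditional binomial 95% intervals, and shares of cells carry exact binomial (Clopper-Pearson) 95% intervals. All intervals cover counting error only. The kit counts molecules at their 3-prime ends, so levels were not divided by transcript length, and levels of different genes can differ with how well their ends are captured. Lats1 measured between 8.90 and 19.9 CPM over the clusters and Lats2 between 31.6 and 80.8 CPM, but a 3-prime count does not show whether the floxed exons were lost.

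Potassium channels let potassium ions leave or enter the cell and thereby set the membrane potential. In smooth muscle and in the mural cells of vessels, an open potassium channel hyperpolarizes the membrane and lowers calcium entry through voltage-gated calcium channels, which relaxes the cell. ATP-sensitive (KATP) channels join an inward rectifier pore (Kcnj8 or Kcnj11) with a sulfonylurea receptor (Abcc8 or Abcc9), K2P channels (Kcnk genes) carry leak currents, calcium-activated channels (Kcnma1 and Kcnn genes) answer calcium, and voltage-gated channels answer depolarization. In fibroblasts these genes are less well known, and several of them are used as markers of pericytes and telocytes.

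Cells were grouped by clusters built without the potassium channel genes and named only where the marker genes of a fixed list were high. The MC-like cluster (mural cells, 69 cells) was high for all 8 of 8 mural markers, with Rgs5 at 2652 CPM and Notch3 at 570 CPM. The SMC-like cluster (smooth muscle, 76 cells) was high for 7 of 7 muscle markers, with Actg2 at 1926 CPM. The FB5-like cluster (subepithelial fibroblasts, 205 cells) was high for 7 of 7 markers, with Pdgfra at 1978 CPM and Sox6 at 292.5 CPM. The other 3758 cells are called other fibroblasts and fell into 7 clusters, of which the FB4-like (submucosal, 690 cells) and vFB3-like (villus, 45 cells) clusters met their marker lists and clusters 1, 2, 3, 5 and 6 are given by number. The MC-like cells also carried the muscle list at a summed 2477 CPM and an endothelial list of 6 genes at 22.9 CPM, with 2 of the 6 genes at 0. Fibroblast markers were present in both small classes as well. The FB4 list summed to 479 CPM in MC-like cells, against 558 CPM in other fibroblasts, with Grem1 in 21.7% and Ackr4 in 7.25% of MC-like cells. The list of villus fibroblasts vFB1-2 summed to 4371 CPM in SMC-like cells, against 4068 CPM in other fibroblasts, and its gene Adamdec1 was seen in 100% of SMC-like cells at 4237 CPM. The channel levels of SMC-like cells are therefore those of cells that carried muscle and villus fibroblast markers together, and the part of the latter in them was not tested. Without the 5 MC-like cells that showed at least 2 FB4 markers, the MC-like levels of Kcnj8, Abcc9, Kcne4, Kcnmb1 and Kcna5 stayed within their counting intervals. Median depth was 6793 UMIs in MC-like, 7910 in SMC-like, 11829 in FB5-like and 10753 in other fibroblast cells. The median share of mitochondrial UMIs was 5.66% in MC-like, 5.96% in SMC-like and 5.76% in FB5-like cells, above the 4.79% of other fibroblasts. In cells with at most 5%, ratios to other fibroblasts were 477 (319 to 741) for Kcnj8 in FB5-like and 21.7 (5.74 to 58.5) for Kcnmb1 in SMC-like cells, against 561 and 19.7 in all cells. Epithelial, mesothelial and neuronal lists were at or below 0.800 CPM in each class.

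The potassium channel genes made up 35085 UMIs (762 CPM), and their counts were uneven. Only 22 of the 63 genes (34.9%) reached 100 UMIs in the library, against 61.6% of all genes, 24 had 10 to 99 UMIs and 17 had fewer than 10. K2P genes held 13655 UMIs (38.9%), nearly all from Kcnk2 with 12833. The antisense and other transcripts held 9781 UMIs, of which Kcnq1ot1 gave 9761. Calcium-activated genes held 3859 UMIs, KATP genes 2308, voltage-gated pore genes 2223, auxiliary genes 1389, modifier genes 1261, sodium-activated and Slo3 genes 525 and the remaining inward rectifiers 84.

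Summed over the 58 channel subunit genes, FB5-like cells had the highest level, 1679 CPM (95% interval 1628 to 1730), against 685.5 CPM (627.6 to 747) in SMC-like, 507 CPM (449.9 to 569) in MC-like and 481 CPM (474 to 487) in other fibroblast cells. The intervals of MC-like cells and other fibroblasts overlapped. The makeup differed more than the sum. KATP genes gave 51.8% of the channel UMIs of FB5-like cells, 19.8% of those of MC-like, 2.52% of those of SMC-like and 0.330% of those of other fibroblast cells. In SMC-like cells Kcnk3 alone gave 31.2% and the calcium-activated genes 26.4%. In other fibroblasts Kcnk2 gave 56.7% and Kcnn3 15.1%. In MC-like cells the largest share of a single gene was the 14.2% of Kcnk2.

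**Figure D1:**
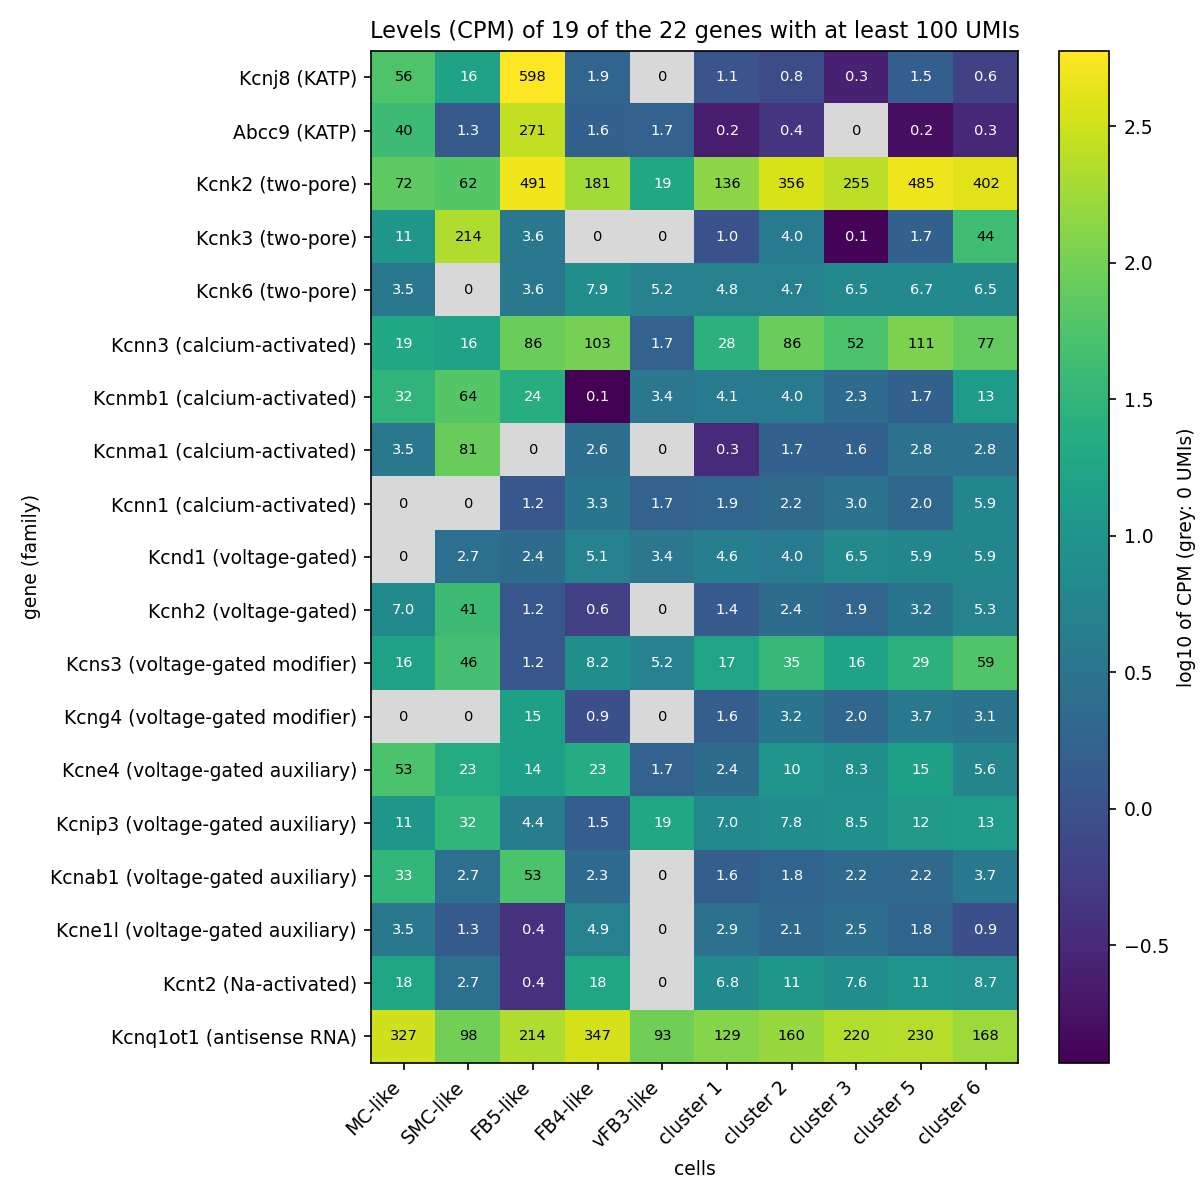
Levels in CPM of 19 of the 22 potassium channel genes with at least 100 UMIs (rows, by family) in the 10 clusters (columns). The number in each cell is the CPM, the color its log10, and grey marks 0 UMIs. Kcnj8 and Abcc9 stand out in FB5-like cells (598 and 271 CPM), Kcnk3 and Kcnma1 in SMC-like cells (214 and 81.0 CPM), and most rows are low in vFB3-like cells.

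Genes were called for a class where their level was at least 3-fold that of all other cells with at least 10 UMIs in the class, among the genes with at least 100 UMIs. In MC-like cells 4 of the 22 genes were called, among them Kcnab1, Kcne4 and Kcnmb1, which is 18.2% against a background of 3.42% of all genes tested. This count was 1 when cells were gated by their own markers and 1 in the columns marked M, and the Kcnab1 call was lost without the 13 MC-like cells that showed at least 2 FB5 markers. It was 3 in the 24 cells with at most 5% mitochondrial UMIs. In SMC-like cells 6 of 22 were called, among them Kcnh2, Kcnip3, Kcnk3, Kcnma1 and Kcnmb1, which is 27.3% against 2.18%. The SMC-like count was 0 in the 8 cells with at most 5% mitochondrial UMIs and 2 in the columns marked M. In FB5-like cells 5 of 22 were called (Abcc9, Kcnab1, Kcng4, Kcnj8 and Kcnmb1), 22.7% against 2.58%, and 2 were in the 38 cells with at most 5% mitochondrial UMIs. The same rule called 2 of 22 for other fibroblasts (Kcnn1, 3.53-fold, 1.18 to 17.4, and Kcnt2, 3.04-fold, 1.76 to 5.76), beside a background of 3.65%. The Kcnt2 level of MC-like cells (10 UMIs) was not below that of other fibroblasts, and the comparison cells included FB5-like cells with 1 UMI. The median ratio to all other cells over the 22 genes was 1.34 in MC-like, 0.501 in SMC-like and 0.805 in FB5-like cells, against medians of 0.978, 0.996 and 1.01 over all genes. Genes moved both ways, so the median and the summed level of a class need not point the same way: in FB5-like and SMC-like cells the sum was above and the median below that of the comparison cells. At least 3-fold lower, among genes with at least 10 UMIs expected in the class, were 2 of 5 in MC-like cells (Kcnk2 and Kcnn3; background 3.7%), 3 of 8 in SMC-like cells (Abcc9, Kcnk2 and Kcnn3; background 3.91%) and 2 of 13 in FB5-like cells (Kcns3 and Kcnt2; background 6.4%). For Abcc9 in SMC-like cells the comparison cells included the FB5-like cells, which held 677 of its 723 UMIs. Against other fibroblasts alone, the SMC-like level of Abcc9 (1 UMI) was not lower. Kcnmb1 was called in all 3 classes, but its FB5-like call was lost without the cells that showed at least 2 muscle markers.

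**Figure D2:**
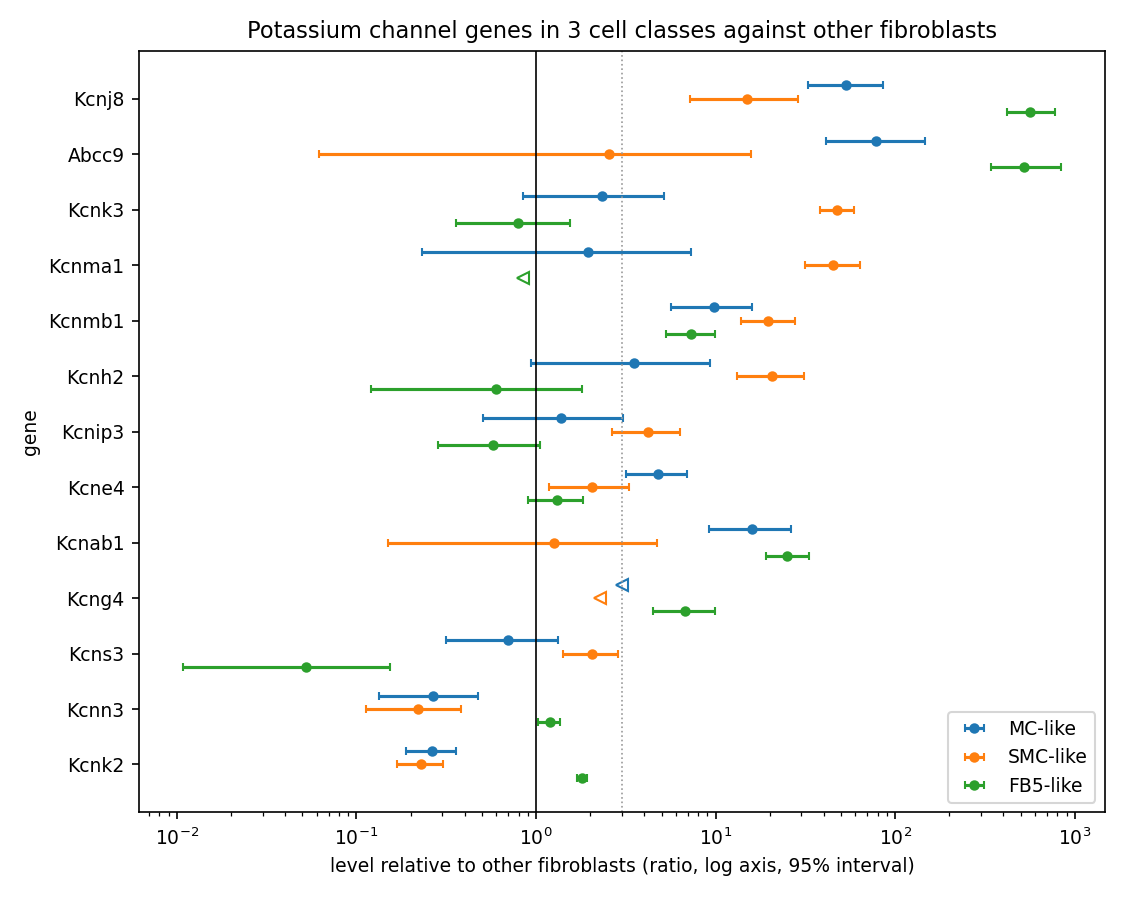
Ratio of the level in MC-like, SMC-like and FB5-like cells to the level in other fibroblasts (log axis) for 13 potassium channel genes, with 95% intervals; open triangles mark the upper bound where the class had 0 UMIs. The solid line marks 1 and the dotted line 3. Kcnj8 reaches 561 in FB5-like cells against a level of other fibroblasts under its free RNA bound, Kcnk3 47.3 in SMC-like cells, and Kcnk2 and Kcnn3 lie below 1 in MC-like and SMC-like cells.

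The KATP genes came first in FB5-like cells. Kcnj8, which encodes the pore subunit Kir6.1, had 1494 UMIs (598 CPM, 567.9 to 629) in FB5-like, 32 UMIs (56.3 CPM, 38.5 to 79.5) in MC-like, 12 UMIs (15.9 CPM, 8.24 to 27.9) in SMC-like and 45 UMIs (1.07 CPM, 0.777 to 1.43) in other fibroblast cells. These levels differed from one class to the next, and no interval overlapped another. The ratio to other fibroblasts was 561 (417 to 773) in FB5-like, 52.9 (32.5 to 85.0) in MC-like and 14.96 (7.20 to 28.8) in SMC-like cells. The level of other fibroblasts lay within what free RNA can give (below 3.47 CPM), so these ratios set a class against background and are not folds of expression. Against all other cells, the MC-like ratio was 1.65, because the FB5-like cells then stood among the others, and so Kcnj8 was not called for MC-like cells.

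Abcc9, which encodes the sulfonylurea receptor SUR2, had 677 UMIs (271 CPM, 250.9 to 292) in FB5-like, 23 UMIs (40.5 CPM, 25.7 to 60.7) in MC-like, 1 UMI (1.33 CPM) in SMC-like and 22 UMIs (0.521 CPM, 0.326 to 0.789) in other fibroblast cells. The ratio to other fibroblasts was 520.1 (341 to 835.5) in FB5-like and 77.7 (41.4 to 146) in MC-like cells. With 1 UMI, the SMC-like ratio of 2.55 had an interval of 0.0618 to 15.8 and could not be told from 1. Here too the level of other fibroblasts lay under the free RNA bound (1.58 CPM). Kcnj8 and Abcc9 were therefore both high in FB5-like and MC-like cells, while SMC-like cells had Kcnj8 UMIs and almost none of Abcc9.

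The other subunits of this channel family were near or at 0. Kcnj11, the alternative pore gene, had 0 UMIs in the 46054627 UMIs of the library. Abcc8, the alternative receptor gene, had 2 UMIs, both in MC-like cells. No fold is given for either gene.

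Kcnj8 and Abcc9 are neighbours on chromosome 6 (mm10), both on the minus strand, Kcnj8 at chr6:142564837-142571614 and Abcc9 at chr6:142587862-142702315, with 16247 bases and 0 annotated genes between them. The 250 bases before the RefSeq start of each gene, less 41 bases of Abcc9 that lie inside its GENCODE gene, are shown because the pair encodes subunits of the same channel and both genes were high in FB5-like and MC-like cells, and those of Kcnmb1 because it was called in all 3 classes when all cells were used. The sequences are from RefSeq (GRCm38.p6), 5′ to 3′ along the gene's strand, at chr6:142571615-142571864 for Kcnj8, chr6:142702316-142702524 for Abcc9 and chr11:33962763-33963012 on the plus strand for Kcnmb1. Capitals mark GGAAT, the core of the sequence bound by TEAD factors, searched on both strands and hence written ATTCC where it lies on the other strand.
Kcnj8: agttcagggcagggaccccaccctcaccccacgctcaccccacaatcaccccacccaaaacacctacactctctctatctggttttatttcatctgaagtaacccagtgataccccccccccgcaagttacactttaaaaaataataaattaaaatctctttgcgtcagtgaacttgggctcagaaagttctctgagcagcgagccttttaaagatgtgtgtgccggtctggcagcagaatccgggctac
Abcc9: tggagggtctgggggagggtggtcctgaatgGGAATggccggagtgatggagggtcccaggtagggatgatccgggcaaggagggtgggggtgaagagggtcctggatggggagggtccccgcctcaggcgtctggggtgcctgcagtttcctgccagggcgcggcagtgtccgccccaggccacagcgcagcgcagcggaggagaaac
Kcnmb1: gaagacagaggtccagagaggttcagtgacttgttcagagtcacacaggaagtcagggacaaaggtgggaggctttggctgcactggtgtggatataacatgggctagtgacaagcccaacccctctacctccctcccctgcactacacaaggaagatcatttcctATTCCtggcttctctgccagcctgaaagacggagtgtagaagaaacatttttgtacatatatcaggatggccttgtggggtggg

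GGAAT occurred once in the window of Abcc9 and once in that of Kcnmb1, and no match lay in the window of Kcnj8. Of all 32851 windows of 250 bases in the table, 34.2% held GGAAT, against 16 of the 61 windows (26.2%) that belong to 46 of the potassium channel genes. The CArG box, the motif of serum response factor in muscle genes, matched 1.47% of all windows and 0 of these 61, searched on both strands. A match is a description of the letters only.

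Within FB5-like cells Kcnj8 was seen in 198 of 205 cells (96.6%), with a median of 7 UMIs per cell, quartiles of 3 and 11 and a maximum of 22. Abcc9 was seen in 184 of 205 cells (89.8%), with a median of 3 and quartiles of 1 and 4. In MC-like cells Kcnj8 was seen in 13 of 69 cells (18.8%) and Abcc9 in 15 (21.7%), and 10 of the 32 Kcnj8 UMIs lay in a single cell. In other fibroblasts, which have a median depth close to that of FB5-like cells, the shares were 1.04% and 0.506%.

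Whether both genes were seen in the same cells was described after cells had been thinned to 5000 UMIs. Cells with fewer were dropped, and this kept 48 of 69 MC-like, 75 of 76 SMC-like and 200 of 205 FB5-like cells. In MC-like cells Abcc9 was seen in 5 of 9 cells with a Kcnj8 UMI (55.6%, 21.2 to 86.3) and in 4 of 39 cells without (10.3%, 2.87 to 24.2). In FB5-like cells the shares were 135 of 180 (75%, 68.0 to 81.1) and 14 of 20 (70.0%, 45.7 to 88.1), which overlapped. The intervals of the MC-like shares overlapped slightly after thinning, and without thinning they did not, at 9 of 13 cells (69.2%, 38.6 to 90.9) with and 6 of 56 (10.7%, 4.04 to 21.9) without a Kcnj8 UMI. Without thinning the FB5-like intervals did not overlap either, at 181 of 198 (91.4%, 86.6 to 94.9) and 3 of 7 (42.9%, 9.90 to 81.6). The unthinned shares of both classes compare cells of unlike depth. In SMC-like cells 0 of 75 thinned cells held an Abcc9 UMI.

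Free RNA and mixed droplets can place UMIs in cells that do not make a transcript. Y-linked UMIs in the 2004 cells with at least 5 Xist UMIs set an upper bound of 10.1% of a gene's library level for such UMIs, which is 3.47 CPM for Kcnj8 and 1.58 CPM for Abcc9. The levels of both genes in other fibroblasts lay under this bound and were read as background. Levels in FB5-like and MC-like cells lay above it for both genes, and the SMC-like level lay above it for Kcnj8 only. Of the 69 MC-like cells, 13 showed at least 2 of the 7 FB5 markers. Without them the MC-like level was 62.6 CPM (38.8 to 95.7) for Kcnj8 and 56.7 CPM (34.1 to 88.5) for Abcc9, so both levels were as high without these cells. Of the SMC-like cells 44 of 76 showed at least 2 FB5 markers, and the other 32 had 5 Kcnj8 UMIs (21.0 CPM, 6.83 to 49.1).

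**Figure D3:**
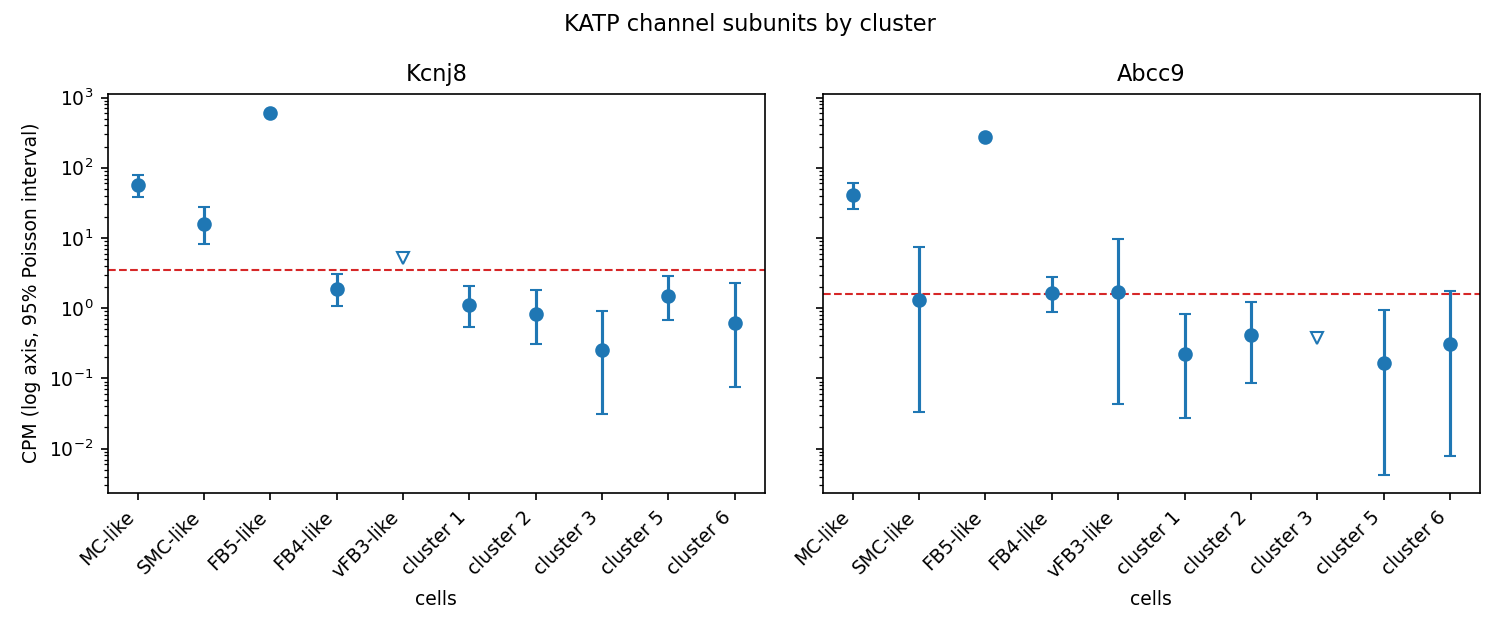
Levels of Kcnj8 (left) and Abcc9 (right) in CPM on a log axis in the 10 clusters. Points are pooled levels, bars 95% Poisson intervals, open triangles the limit of 3 counts where the cluster had 0 UMIs, and the dashed line the bound on free RNA (3.47 and 1.58 CPM). Both genes stand above the bound in MC-like and FB5-like cells, and Kcnj8 does in SMC-like cells too.

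Of the remaining inward rectifiers, which include G-protein-gated and classical Kir channels, 6 genes had 84 UMIs in all. Kcnj5, a G-protein-gated channel, had 10 of its 30 UMIs in FB5-like cells (4.002 CPM) and 10 in cluster 6 (3.12 CPM). Kcnj2, the classical Kir2.1 channel of vessels, had 1 UMI in FB5-like, 1 in SMC-like and 0 in MC-like cells, so no difference was detectable at this depth. Kcnj13, Kcnj4, Kcnj9 and Kcnj10 had 3 to 24 UMIs.

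Among the K2P genes, and over the pooled classes, Kcnk2 was highest in FB5-like cells and Kcnk3 in SMC-like cells. By cluster, the FB5-like level of Kcnk2 was 1.01-fold (0.946 to 1.08) that of cluster 5, and cluster 6 held both genes. Kcnk2, which encodes the mechanically gated channel TREK-1, had the most UMIs of the channel genes and was seen in 77.3% of all cells. Its level was 491 CPM (464 to 519) in FB5-like and 273 CPM (268 to 278) in other fibroblast cells, against 72.1 CPM (51.8 to 97.9) in MC-like and 62.4 CPM (45.9 to 83.0) in SMC-like cells. The intervals of the last pair overlapped, and both lay above the free RNA bound of 28.1 CPM. In MC-like cells the 41 UMIs came from 13 of 69 cells, and in SMC-like cells the 47 UMIs came from 18 of 76 cells.

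Kcnk3, which encodes the acid-sensitive leak channel TASK-1, had 161 UMIs in SMC-like cells (214 CPM, 182 to 249.6), 6 in MC-like (10.6 CPM, 3.87 to 23.0), 9 in FB5-like (3.60 CPM, 1.65 to 6.84) and 191 in other fibroblast cells (4.52 CPM, 3.90 to 5.21). It was seen in 59 of 76 SMC-like cells (77.6%). The SMC-like level was 20.3-fold (9.11 to 56.0) that of MC-like cells and 47.3-fold (38.1 to 58.6) that of other fibroblasts. Of the 191 UMIs in other fibroblasts, 142 lay in cluster 6 (44.2 CPM, 37.3 to 52.1), and the FB4-like cluster had 0 UMIs of Kcnk3 in 8556037.

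Cluster 6 thus held Kcnk3 at a level 10.9-fold (7.29 to 16.9) that of cluster 2, the next of the fibroblast clusters, and 4.84-fold (3.84 to 6.10) below that of SMC-like cells. Kcnk3, Kcnh2 and Kcnmb1 were at least 3-fold higher in cluster 6 than in the other fibroblast clusters, 3 of 22 genes against a background of 0.741%. In FB4-like cells 1 of 22 was (Abcc9 with 14 UMIs, 1.64 CPM, close to its free RNA bound; background 1.75%), and 0 of 22 were in clusters 1 (background 0.253%), 2 (0.0436%), 3 (0.166%), 5 (0.279%) and vFB3-like cells (2.38%). The muscle marker list summed to 221.5 CPM in cluster 6, against 57.0 to 116 CPM in clusters 1, 2, 3, 5 and the FB4-like cluster, 571 CPM in vFB3-like and 6446 CPM in SMC-like cells. Without the cells that showed at least 2 of the 7 muscle markers, 212 of 333 cells were left, Kcnk3 measured 41.1 CPM (32.7 to 51.1) and was as high as with them, while Kcnmb1 went from 12.8 to 8.13 CPM and Kcnh2 from 5.30 to 3.05 CPM. The call of Kcnh2 was lost, at 6 UMIs and a ratio of 1.75 (0.620 to 4.01), so the count for cluster 6 was 2 of 22 without these cells.

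Other K2P genes were lower. Kcnk6 ran from 0 UMIs in SMC-like cells to 7.95 CPM in FB4-like cells. Kcnk1, below 100 UMIs in the library, had 57 of its 77 UMIs in FB5-like cells (22.8 CPM, 17.3 to 29.6) and 14 in the 45 vFB3-like cells (24.1 CPM), with 6 UMIs in all other clusters together. Kcnk13, which encodes the halothane-inhibited channel THIK-1, had 19 of its 24 UMIs in FB5-like cells (7.60 CPM). Kcnk7, Kcnk12 and Kcnk5 had 13 to 43 UMIs.

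The large-conductance calcium-activated (BK) channel genes were highest in muscle. Kcnma1, the BK pore gene, had 61 UMIs in SMC-like cells (81.0 CPM, 62.0 to 104), 2 in MC-like cells (3.52 CPM), 0 in FB5-like cells (upper limit 1.20 CPM at 3 counts) and 76 in other fibroblasts (1.80 CPM, 1.42 to 2.25). Kcnmb1, its muscle beta subunit, had 48 UMIs in SMC-like (63.8 CPM, 47.0 to 84.6), 18 in MC-like (31.7 CPM, 18.8 to 50.1), 59 in FB5-like (23.6 CPM, 18.0 to 30.5) and 137 in other fibroblast cells (3.24 CPM, 2.72 to 3.84). The Kcnmb1 ratio to other fibroblasts was 19.7 (13.9 to 27.5) in SMC-like, 9.76 (5.62 to 16.0) in MC-like and 7.28 (5.27 to 9.95) in FB5-like cells. FB5-like cells therefore held the beta subunit transcript and no UMI of the pore transcript.

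Of the FB5-like cells 147 of 205 showed at least 2 muscle markers, among them Myh11 at 218.5 CPM, and the other 58 cells had 7 Kcnmb1 UMIs (12.3 CPM, 4.94 to 25.3), a ratio of 2.63 (1.05 to 5.53) to all other cells, which was not called. Nearly all MC-like cells showed at least 2 muscle markers, so the same comparison left 1 cell there. Kcnmb1 lies inside the Kcnip1 gene on the other strand, and reads of the 2 genes cannot be told apart unless the counting used strand. Kcnip1 had 5 UMIs in SMC-like cells, 2 in FB5-like cells and 0 in MC-like cells. After thinning, Kcnmb1 was seen in 4 of 19 SMC-like cells with a Kcnma1 UMI (21.1%, 6.05 to 45.6) and in 13 of 56 without (23.2%, 13.0 to 36.4), which overlapped. Kcnmb4, another BK beta subunit, had 14 of its 22 UMIs in SMC-like cells (18.6 CPM, 10.2 to 31.2) and 0 in MC-like and FB5-like cells.

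Among the small-conductance calcium-activated genes, Kcnn3 (SK3) was the main transcript. It measured 86.4 CPM (75.3 to 98.8) in FB5-like and 72.7 CPM (70.2 to 75.3) in other fibroblast cells, against 19.4 CPM (9.66 to 34.6) in MC-like and 15.9 CPM (8.24 to 27.9) in SMC-like cells. Mural and muscle cells thus had less Kcnn3 than other fibroblasts pooled, with a UMI in 6 MC-like and 9 SMC-like cells. Single fibroblast clusters did not all lie above them, since cluster 1 (28.3 CPM) fell within the MC-like interval and vFB3-like cells had 1 UMI (1.72 CPM). Kcnn1 (SK1) ranged from 0 UMIs in MC-like and SMC-like cells to 5.92 CPM in cluster 6, and Kcnn2 and Kcnn4 had 4 and 2 UMIs in all.

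Voltage-gated pore genes divided the classes. Kcna5 (Kv1.5) had 21 of its 27 UMIs in MC-like cells (37.0 CPM, 22.9 to 56.5), in 17 of 69 cells, with 0 UMIs in SMC-like and FB5-like cells. Kcnh2 (the hERG channel) measured 41.2 CPM (28.0 to 58.5) in SMC-like and 7.04 CPM (1.92 to 18.0) in MC-like cells, against 2.01 CPM (1.61 to 2.49) in other fibroblasts. Kcnq5 (Kv7.5) had 19 of its 21 UMIs in FB5-like cells (7.60 CPM, 4.58 to 11.9), 1 in MC-like and 1 in FB4-like cells. Kcna5, Kcnh2 and Kcnq5 thus had their highest levels in different classes.

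Kcnd1 (Kv4.1) was called for no class. It measured 5.23 CPM (4.57 to 5.97) in other fibroblasts, with 6 UMIs in FB5-like, 2 in SMC-like and 0 in MC-like cells. Kcna2 had 19 of its 32 UMIs in FB4-like and 6 in MC-like cells. Its 24 UMIs in other fibroblasts, the FB4-like cells among them, came from 7 cells, with 12 in a single cell. Kcnd3 had 26 UMIs in all.

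Modifier subunits, which do not form channels alone and change the gating of the voltage-gated channels they join, had opposite patterns. Kcns3 (Kv9.3) was at 46.5 CPM (32.4 to 64.7) in SMC-like, 15.8 CPM (7.24 to 30.1) in MC-like and 22.8 CPM (21.4 to 24.3) in other fibroblast cells, but had 3 UMIs in FB5-like cells (1.20 CPM, 0.248 to 3.51), under the free RNA bound of 2.21 CPM. Kcng4 (Kv6.4) was at 14.8 CPM (10.4 to 20.4) in FB5-like cells with 37 UMIs, 0 in MC-like and SMC-like cells and 2.20 CPM (1.78 to 2.70) in other fibroblasts. Kcng2, a further modifier, had 26 of its 71 UMIs in FB5-like cells (10.4 CPM, 6.80 to 15.2). Kcng1 had 34 of its 35 UMIs in other fibroblasts, too few to set FB5-like cells, with 0 UMIs, apart from them.

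Auxiliary subunits also differed by class. Kcne4, which inhibits several Kv channels, measured 52.8 CPM (35.6 to 75.4) in MC-like, 22.6 CPM (13.2 to 36.2) in SMC-like, 14.4 CPM (10.1 to 19.9) in FB5-like and 11.1 CPM (10.1 to 12.1) in other fibroblast cells. It was seen in 34.8% of MC-like cells. Kcnip3, a calcium-binding Kv4 partner also known as DREAM, measured 31.9 CPM (20.4 to 47.4) in SMC-like against 7.62 CPM (6.81 to 8.50) in other fibroblast cells. Kcnab1, a Kv1 beta subunit, measured 52.8 CPM (44.2 to 62.6) in FB5-like, 33.4 CPM (20.1 to 52.2) in MC-like and 2.11 CPM (1.69 to 2.59) in other fibroblast cells.

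The Kcnab1 level of MC-like cells rested on few cells. Its 19 UMIs came from 8 cells, and without the 13 cells that showed at least 2 FB5 markers 3 UMIs were left (8.95 CPM, 1.85 to 26.1). The call of Kcnab1 for MC-like cells was lost with that exclusion. Kcne1l, an X-linked relative of Kcne genes, ran from 0 UMIs in vFB3-like to 4.91 CPM in FB4-like cells. The sodium-activated channel gene Kcnt2 measured 17.6 CPM (8.44 to 32.4) in MC-like and 10.4 CPM (9.40 to 11.4) in other fibroblast cells, with 1 UMI in FB5-like cells (0.400 CPM). Its relative Kcnt1 had 4 UMIs, all in MC-like cells.

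Kcnq1ot1 is a long noncoding RNA that runs antisense to Kcnq1 and takes part in the imprinting of that region. It measured 347 CPM in FB4-like and 327 CPM (282 to 378) in MC-like cells, 98.3 CPM (77.2 to 123) in SMC-like and 212 CPM in other fibroblast cells. Kcnq1 itself had 0 UMIs, as had Kcnmb3, Kcnj16, Kcnj15, Kcnj14, Kcnj12, Kcnh3, Kcne2 and Kcnc1.

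Across the 7 clusters of other fibroblasts the abundant channel genes varied more than their counting error. Kcnk2 measured 485 CPM in cluster 5, 402 CPM in cluster 6, 356 CPM in cluster 2, 255 CPM in cluster 3, 181 CPM in FB4-like, 136 CPM in cluster 1 and 18.9 CPM (11 UMIs) in vFB3-like cells. The lead of cluster 5 over cluster 6 was 1.21-fold (1.13 to 1.29), and the level of FB5-like cells was 1.01-fold (0.946 to 1.08) that of cluster 5. Kcnn3 measured 111 CPM in cluster 5, 103 CPM in FB4-like, 86.3 CPM in cluster 2, 77.3 CPM in cluster 6, 51.8 CPM in cluster 3, 28.3 CPM in cluster 1 and 1.72 CPM (1 UMI) in vFB3-like cells. The order of its first pair was within counting error, at a ratio of 1.07 (0.965 to 1.18).

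The vFB3-like cells had the lowest sum of channel genes, 127 CPM (99.9 to 160) against 263 to 751 CPM in the other 6 fibroblast clusters. Their Kcnk2 and Kcnn3 levels lay under the free RNA bounds of 28.1 and 7.25 CPM, so neither transcript was detected above background there. Their median depth of 12888 UMIs was the highest of all clusters. Kcnk1 (24.1 CPM, 14 UMIs) and Kcnip3 (18.9 CPM, 11 UMIs) were among the genes with more than 10 UMIs in these cells.

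Channel genes were also compared between cluster 2 and cluster 1 and between cluster 5 and cluster 3, pairs that were chosen after the levels had been seen. The YAP and TAZ target genes Amotl2, Ctgf and Cyr61 were lower in the first cluster of each pair. Amotl2 was at 52.5 CPM in cluster 2, where cluster 1 had 194 CPM, and stood at 75.9 CPM in cluster 5 beside 280 CPM in cluster 3. For Ctgf the same levels were 30.9 against 90.0 CPM and 14.7 against 92.4 CPM. Cyr61 measured 147 against 169 CPM and 377 against 937 CPM, so that its level in cluster 5 was above that in cluster 1. Fos, an immediate early gene, was higher in the first cluster of each pair, at 529 against 103 CPM and 2819 against 1840 CPM, and so was not level within the pairs. In cluster 2, 7 of the 22 genes were at least 2-fold higher than in cluster 1, among them Kcne4, Kcng4, Kcnk2, Kcnk3, Kcnma1 and Kcnn3, which is 31.8% against a background of 4.39%, and 0 were at least 2-fold lower (background 3.39%). Few UMIs lay behind some of these calls. Kcnma1 had 7 UMIs in F and 5 in M columns of cluster 2, against 3 and 0 in cluster 1. Kcng4 had 12 and 11 UMIs there, against 10 and 4 in cluster 1. In cluster 5, 2 of 22 (Kcnk3 and Kcnn3, 9.09%) were at least 2-fold higher than in cluster 3 (background 2.39%) and 0 were lower (background 2.89%). The call of Kcnk3 in this pair rested on 10 against 1 UMIs (13.2, 1.88 to 573), and fewer than 10 UMIs were left in cluster 5 within either mark, in cells of 8000 to 14000 UMIs (3 against 1) and without the cells of highest doublet score (6 against 1). The median ratio over the 22 genes was 1.41 and 1.55 for the 2 pairs, against 1.01 and 0.990 over all genes. Because the pairs were chosen with these levels known, the counts and medians cannot be read as an excess over background.

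For Kcnk2 the ratios were 2.61 (2.44 to 2.80) and 1.90 (1.79 to 2.01), and for Kcnn3 they were 3.05 (2.63 to 3.55) and 2.14 (1.88 to 2.42). Kcns3 gave 2.00 (1.63 to 2.46) and 1.74 (1.37 to 2.20). Within cells of 8000 to 14000 UMIs, and within the columns marked M or F alone, each of these 3 genes stayed above 1 with its interval in both pairs. Kcne4 gave 4.31 (2.62 to 7.37) and 1.87 (1.35 to 2.61), but 20 of its 21 UMIs in cluster 1 lay in columns marked F. Kcnk3 gave 3.99 in the first pair, from 29 and 9 UMIs, but 1.08 (0.312 to 3.90) in the columns marked M. In cells of 8000 to 14000 UMIs it gave 2.04 (0.709 to 6.63). The levels of Amotl2, Ctgf, Cyr61 and Fos moved with these ratios, and their part in them was not tested.

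**Figure D4:**
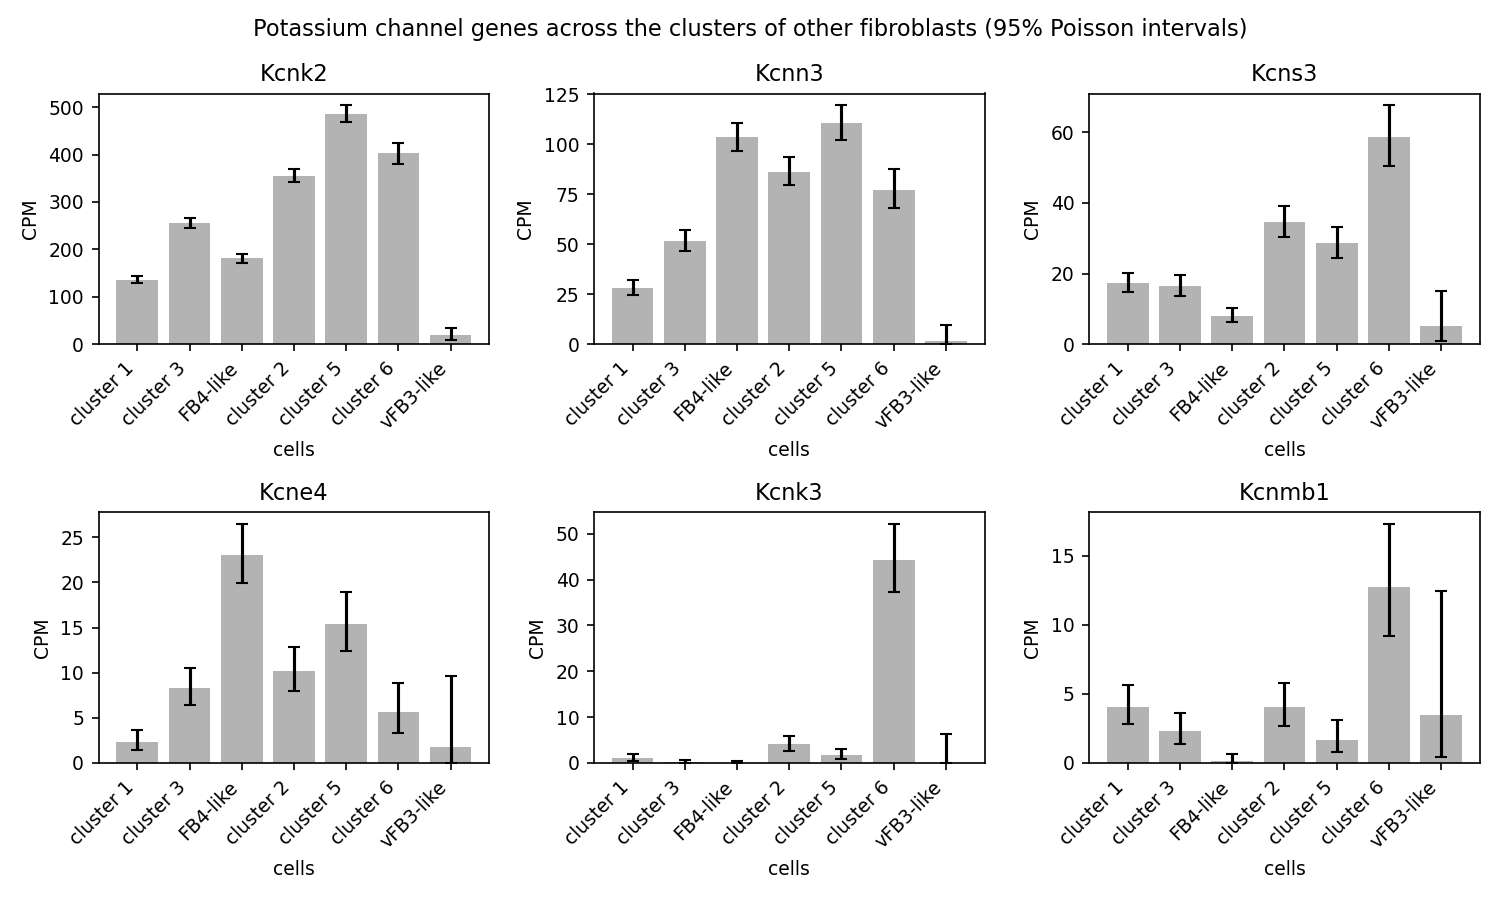
Levels in CPM (bars from 0, with 95% Poisson intervals) of Kcnk2, Kcnn3, Kcns3, Kcne4, Kcnk3 and Kcnmb1 in the 7 clusters of other fibroblasts. Kcnk2 is higher in cluster 2 (356 CPM) than in cluster 1 (136 CPM) and higher in cluster 5 (485 CPM) than in cluster 3 (255 CPM), and Kcnk3 is found mainly in cluster 6 (44.2 CPM).

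The columns of the table are marked M (1983 cells) or F (2125 cells), and every F cell and no M cell had an Xist UMI, so the marks split the library by Xist. The sex and the animal cannot be told apart. Kcnk2 was lower in F than in M cells, 222 against 348 CPM, a ratio of 0.638 (0.616 to 0.660). The ratio was 0.697 in cluster 1, 0.630 in cluster 2, 0.733 in cluster 3, 0.663 in FB4-like, 0.720 in cluster 5 and 0.753 in cluster 6, each with an interval below 1. In FB5-like cells Kcnk2 measured 487 CPM in F and 496.5 CPM in M cells, a ratio of 0.981 (0.875 to 1.10). Kcns3 gave 0.643 (0.567 to 0.729) over all cells and below 1 in clusters 1, 2, 3, 5 and 6 with their intervals. It was not below 1 in FB4-like (1.53, 0.910 to 2.64) or SMC-like cells (1.10, 0.511 to 2.57), and MC-like cells had 8 UMIs in F and 1 in M columns. Kcnn3 gave 1.03 (0.963 to 1.11) over all cells. Within clusters Kcnn3 was higher in F cells of cluster 3 (1.33, 1.09 to 1.64) and cluster 5 (1.25, 1.07 to 1.46), and its intervals included 1 in clusters 1, 2, 6 and the FB4-like and FB5-like clusters. Cluster shares differed between the marks, with 65.4% F cells in cluster 1 and 30.6% in cluster 6, so the values within clusters are the ones to compare.

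Kcnj8 and Abcc9 differed little between the marks in FB5-like cells, where the F to M ratio was 1.04 (0.937 to 1.15) for Kcnj8 and 1.03 (0.885 to 1.21) for Abcc9. In MC-like cells it was 1.597 (0.726 to 3.78) and 1.13 (0.455 to 2.96), intervals too wide to show whether the marks differed. In SMC-like cells 11 of the 12 Kcnj8 UMIs lay in the F columns. Kcnma1 measured 95.7 CPM in F and 47.8 CPM in M cells of the SMC-like cluster, a ratio of 2.00 (1.03 to 4.27).

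**Figure D5:**
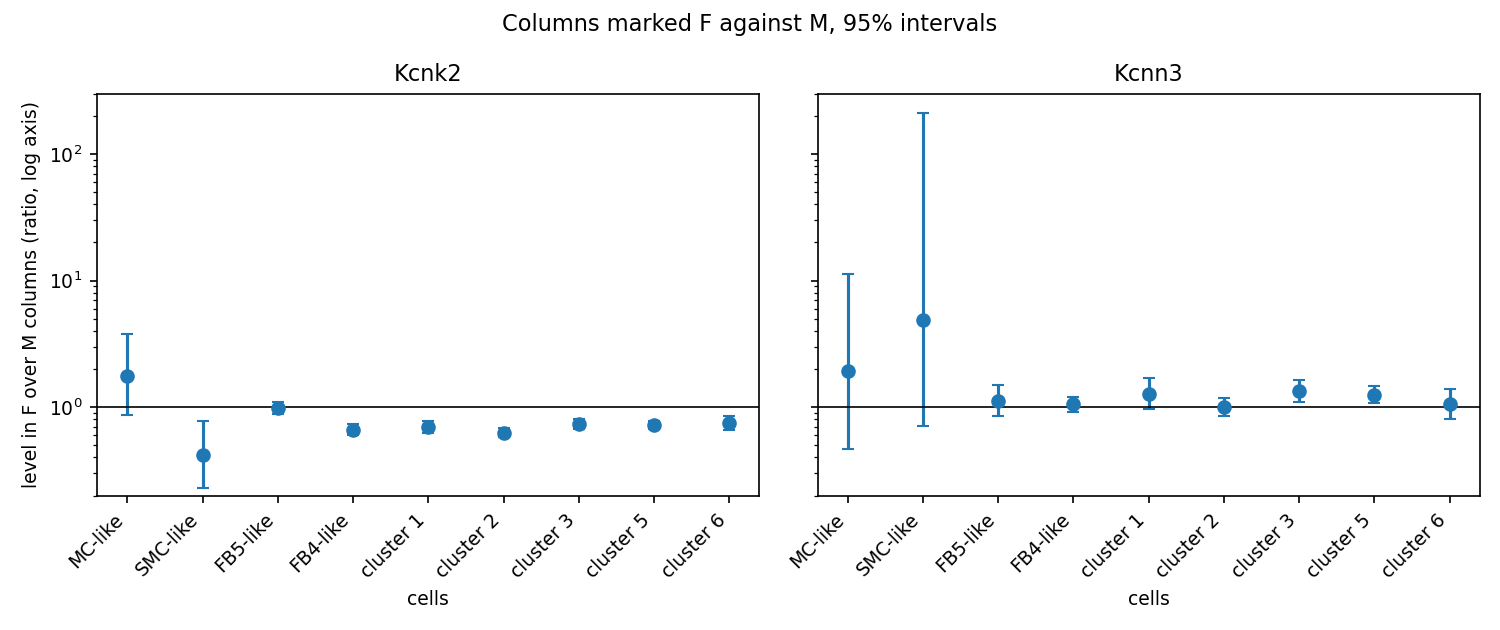
Ratio of the level in columns marked F to that in columns marked M (log axis, 95% intervals) for Kcnk2 (left) and Kcnn3 (right) in 9 clusters. The vFB3-like cluster is left out because it had 11 and 1 UMIs. Kcnk2 lies between 0.630 and 0.753 in the 6 fibroblast clusters shown and at 0.981 in FB5-like cells.

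Genes that work with these channels were counted by list. Of 21 genes of calcium entry and release, 16 had at least 100 UMIs, and 3 were at least 3-fold higher in MC-like cells (Cacnb2, Ryr2 and Stim1), 1 in SMC-like cells (Cacna1h), 2 in FB5-like cells (Cacna1g and Cacnb2) and 1 in other fibroblasts (the mechanically gated channel gene Piezo2, 36.1 CPM, 9.20-fold, 5.56 to 16.5). Of the 1526 Piezo2 UMIs of other fibroblasts, 1132 lay in FB4-like cells (132 CPM). Each remaining fibroblast cluster had 1.72 to 22.0 CPM of Piezo2, below the 24.6 CPM of MC-like cells. Ryr2, a calcium release channel whose sparks open BK channels in arteries, measured 75.7 CPM in MC-like cells, 43.6-fold (29.3 to 63.9) all other cells, and 5.31 CPM in SMC-like cells. The T-type calcium channel genes divided, with Cacna1h at 61.1 CPM in SMC-like cells (33.4-fold, 22.7 to 48.4) and Cacna1g at 34.4 CPM in FB5-like cells (7.93-fold, 6.07 to 10.3). Genes under 100 UMIs in the library were not tested, also where they were high in a small class. Among them, Cacna1c had 36 UMIs in MC-like (63.3 CPM) and 17 in SMC-like cells (22.6 CPM), against 0.758 CPM in other fibroblasts. Trpc6 had 49 UMIs in SMC-like (65.1 CPM) and 18 in MC-like cells (31.7 CPM), against 0.284 CPM in other fibroblasts.

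Of 11 potassium pump and cotransporter genes, 9 were tested, and Atp1b2 (148 CPM, 16.8-fold, 13.1 to 21.3) and Slc12a2 (91.5 CPM, 8.08-fold, 5.96 to 10.8) were called for MC-like cells, genes that include Atp1b1 (3.22 CPM, 3.08-fold, 1.17 to 11.5), a sodium-potassium pump subunit, for other fibroblasts, and none for SMC-like or FB5-like cells. Of the 136 Atp1b1 UMIs of other fibroblasts, 96 lay in FB4-like cells (11.2 CPM). Each remaining fibroblast cluster had 0 to 2.68 CPM of Atp1b1, beside 1.76 CPM in MC-like cells. Of 10 genes of other currents and coupling, 3 were tested, and the gap junction genes Gjc1 in MC-like cells (234 CPM, 5.40-fold, 4.49 to 6.43) and Gja1 in FB5-like cells (236 CPM, 6.77-fold, 6.15 to 7.45) were called. Of 7 auxiliary subunits with other names, 2 were tested and 0 were called. The backgrounds are the shares of 3.42%, 2.18%, 2.58% and 3.65% of all genes given above for MC-like, SMC-like, FB5-like and other fibroblast cells.

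Kcnj8 and Abcc9 stood beside a further set of marker levels in FB5-like cells. The list for interstitial cells of Cajal summed to 226 CPM there, of which Etv1 gave 223 CPM, while Kit measured 2.00 CPM and Prkcq had 1 UMI. The immune list summed to 54.8 CPM, all from Lyz2, with 3 of its 4 markers at 0.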

How the data were processed

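Sorted stromal cells were profiled with the 10x 3-prime v3 kit, and the authors aligned reads to mm10 with Cell Ranger 3.0.2. The submitters' processing notes name Seurat 3.0.1. Cells with 1000 to 6000 genes and at most 7% mitochondrial UMIs were kept, and clusters of Ptprc+ immune and of Pecam1+ Cdh5+ endothelial cells had been taken out. As deposited, each value is a natural log, taken by the authors, of 1 plus a gene's UMIs divided by the cell's UMIs times 10000. UMI counts were planned on and were read back from these values, 100% of which came out whole at a tolerance of 0.001. The total was 46054627 UMIs in 4108 cells, and 0 barcodes were shared between the columns marked M and F.

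Cells were clustered with Seurat 5.3.0 in R 4.3.3, using 2000 variable genes less all potassium channel and sex-linked genes, 30 principal components and resolution 0.5, with UMIs and mitochondrial percent regressed out. A marker counted where at least 10% of a cluster's cells had a UMI and its level reached 2 times the median over the remaining clusters, and a name needed all markers of its list. This rule was set after the levels had been seen. No doublets were removed in the main results, since the authors excluded doublets at sorting and cells above 6000 genes. Scrublet (scanpy 1.11.5) marked only 8 cells, so it was not relied on, and an alternative dropped the 164 top-scoring cells (4%).

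Pooled levels, ratios and shares were computed with scipy 1.17.1, in a script tested on simulated counts. No test was run, because cells are not replicates. Coordinates came from GENCODE M21 (mm10), which matched all 63 genes. Named were all genes with at least 100 UMIs, those with fewer that had at least 10 UMIs in MC-like, SMC-like or FB5-like cells and were at least 3-fold higher there, Kcnj11 and Abcc8, and listed partner genes at least 3-fold higher in a class. Some of the genes counted are not reported here by name. Other genes were named after their values had been seen. The genes, lists and alternatives were chosen with earlier results of these data known. The comparisons of cluster 2 with 1 and of cluster 5 with 3, the calls for other fibroblasts and the exclusions of cells that showed markers of another class were added after seeing the data.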

Additional observations from a re-analysis of the deposited data

How the results depend on the processing

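With other settings, 82 of 96 values of the main comparisons moved by less than their counting error or stayed within 1.5 times the main count. The count of genes called for MC-like cells was 4, and it was 1 when cells were gated by their own markers and 1 within the columns marked M. The SMC-like count of 6 was 0 in cells with at most 5% mitochondrial UMIs, where 8 of 76 cells were left, and 2 in the columns marked M, where 24 were left. The FB5-like count of 5 was 2 in cells with at most 5% mitochondrial UMIs, where 38 of 205 cells were left, and 10 both with a minimum of 20 UMIs in the library and with no filter on low counts. Under the gate per cell, the Kcnj8 ratio to other fibroblasts was 15.5 in MC-like and 169 in FB5-like cells, against 52.9 and 561. The Kcnmb1 ratio of SMC-like cells was 12.8 in the columns marked M, against 19.7. The share of Abcc9 cells among FB5-like cells with a Kcnj8 UMI was 41.9% when thinned to 2000 UMIs and 91.4% without thinning, and among those without a Kcnj8 UMI it was 31.6% and 42.9%. At most 5% mitochondrial UMIs turned the Kcnip3 ratio of SMC-like cells and the Kcnh2 ratio of MC-like cells to 0.0, as 0 UMIs of each gene were left. With the free RNA bound subtracted, no Kcnj8 ratio could be given, since its level in other fibroblasts lay under the bound. No paired analysis was possible because 1 library was analysed. The cause of these shifts was not tested, apart from the fewer cells named. The 1 library limits every statement to these cells, and in classes of 69 and 76 cells a gene under about 3 counts cannot be told from 0.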
